A study of Mus musculus with 36 samples.

Results

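Fatty acid oxidation and ketogenesis were followed as a module of 38 genes across 36 bead arrays of mouse liver and liver tumour tissue. The genes were listed by their function in this pathway, and every probe carrying one of their symbols was taken, whatever its values. The list was chosen with earlier results of these data known. Counts of members set beside the share of all genes are therefore not blind to the data. Of the 38 genes, 37 had a probe and 34 passed the detection filter, among the 10765 genes tested on these arrays. Hadha was not analysed here. The probe of Cpt1a was detected on 1 array and those of Fabp1 and Vnn1 on 0 arrays, so no level is given for these 3 genes.

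Fatty acids are burned after they enter mitochondria by the carnitine shuttle, where a chain of dehydrogenases, hydratases and thiolases shortens them and passes electrons to the respiratory chain through the electron transfer flavoprotein. Very long, branched and dicarboxylic fatty acids are first shortened in peroxisomes, and the liver turns surplus acetyl-CoA into ketone bodies for export during fasting. The nuclear receptor PPAR alpha, helped by the liver transcription factor CREB3L3, is the main inducer of these genes in hepatocytes when food is withheld, and the hormone FGF21 is a target of both.

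Total RNA came from livers and liver tumours of FVB/n mice, and the study asked how driver genes and injury shape the tumours. AKT-NRAS tumours with DDC (4 arrays) and without it (4 arrays) carried AKT, a kinase of the insulin pathway, together with NRAS, a small GTPase. AKT-CAT tumours were sampled with DDC (4 arrays), with CCl4 (4 arrays) and with neither (4 arrays), each beside non-tumoral tissue of AKT-CAT livers (3 arrays with DDC, 4 with CCl4 and 3 with neither). DDC-only livers (3 arrays) and PBS-only livers (3 arrays) served as control tissue. DDC is a porphyrinogenic compound that injures bile ducts and hepatocytes, and CCl4 is carbon tetrachloride, a hepatocyte poison. AKT stands in the labels of all tumours and of the livers that gave the non-tumoral tissue, and whether the non-tumoral tissue itself carried it was not tested. The labels do not spell out CAT, and the way the driver genes were introduced, the promoter behind them, the age of the mice and the doses are not given in the sources used here. The labels also do not say which arrays came from separate animals, so each p-value measures the spread between these arrays, which may in part be technical.

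Levels are log2 intensities after background correction and quantile normalization, 1 probe per gene, and are compared only for the same probe. A gene was called at an adjusted p under 0.05 (limma, Benjamini-Hochberg over the 10765 genes). Between 41.6% and 51.0% of the probes were detected per array, with within-group correlations of at least 0.961. The study used 5 slides. AKT-NRAS tumours with and without DDC filled a slide of their own, as did AKT-CAT tissue with CCl4, while DDC-only and PBS-only livers shared a slide with 2 AKT-CAT tumours given DDC. Hepatocyte markers (11 of 14 measured) averaged between 10.30 and 11.66 in the 10 groups, with 0 to 2 of them on no array of a group, so each group held hepatocyte RNA. The 3 PBS-only arrays were spread widely: their 34 members averaged 10.14 in replicate 3, the lowest, and 11.18 in replicate 1, the highest. Replicate 2 lay between them, and the SD of 0.527 was the largest of the 10 groups.

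PPAR alpha binds DNA with RXR at 2 direct copies of AGGTCA spaced by 1 base, so the promoters of the members were searched for this repeat, from 250 bases before to 50 bases after each gene's start in RefSeq on GRCm38.p6. A promoter was found for 33 members. On either strand, the full repeat stood in 0 of the 33 members' promoters, against 0.0481% of 27025 genes. A looser form, with 2 copies of AGGNCA spaced by 1 base, stood in 1 member, Fabp1 (3.03%, against 0.451% of all genes). A single copy of AGGTCA stood in 8 members (24.2%, against 18.1% of all genes). The windows here show that copy in 4 members that were lower in AKT-NRAS tumours than in both AKT-CAT tumours and PBS-only livers. They also show it in Fabp1, where the looser repeat overlaps it. Of the members not shown, Acot3 was lower in both comparisons, Creb3l3 was lower only than in PBS-only livers, and Cpt1a has no level. Most measured members without a copy were lower in both comparisons too, and whether the copy goes with the fall was not tested. Capitals mark AGGTCA or its reverse complement TGACCT, and each sequence reads 5′ to 3′ on the gene's strand.
Slc27a2, chr2:126552779-126552834, plus strand: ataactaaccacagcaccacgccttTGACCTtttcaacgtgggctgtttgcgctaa
Acadm, chr3:153944862-153944893, minus strand: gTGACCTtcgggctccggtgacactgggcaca
Acadvl, chr11:70015485-70015540, minus strand: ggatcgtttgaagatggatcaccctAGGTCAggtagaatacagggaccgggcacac
Acot4, chr12:84038341-84038378, plus strand: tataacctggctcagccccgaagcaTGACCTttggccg
Fabp1, chr6:71199787-71199842, plus strand: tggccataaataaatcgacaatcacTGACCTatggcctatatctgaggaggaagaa
The capitals begin 220 bases before the start of Slc27a2, 249 bases before that of Acadm, 87 before Acadvl, 13 before Acot4 and 67 before Fabp1. A match describes these letters and is not a measured binding site.

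Across the 10 groups, the mean log2 level over the 34 members was lowest in the AKT-NRAS tumours: 9.40 (9.30 to 9.50 over 4 arrays) with DDC and 9.62 (9.37 to 9.86) without it. DDC-only livers averaged 10.18 (10.16 to 10.21) and PBS-only livers 10.71 (10.14 to 11.18). All AKT-CAT groups lay between 10.29 and 10.80.

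**Figure D1:**
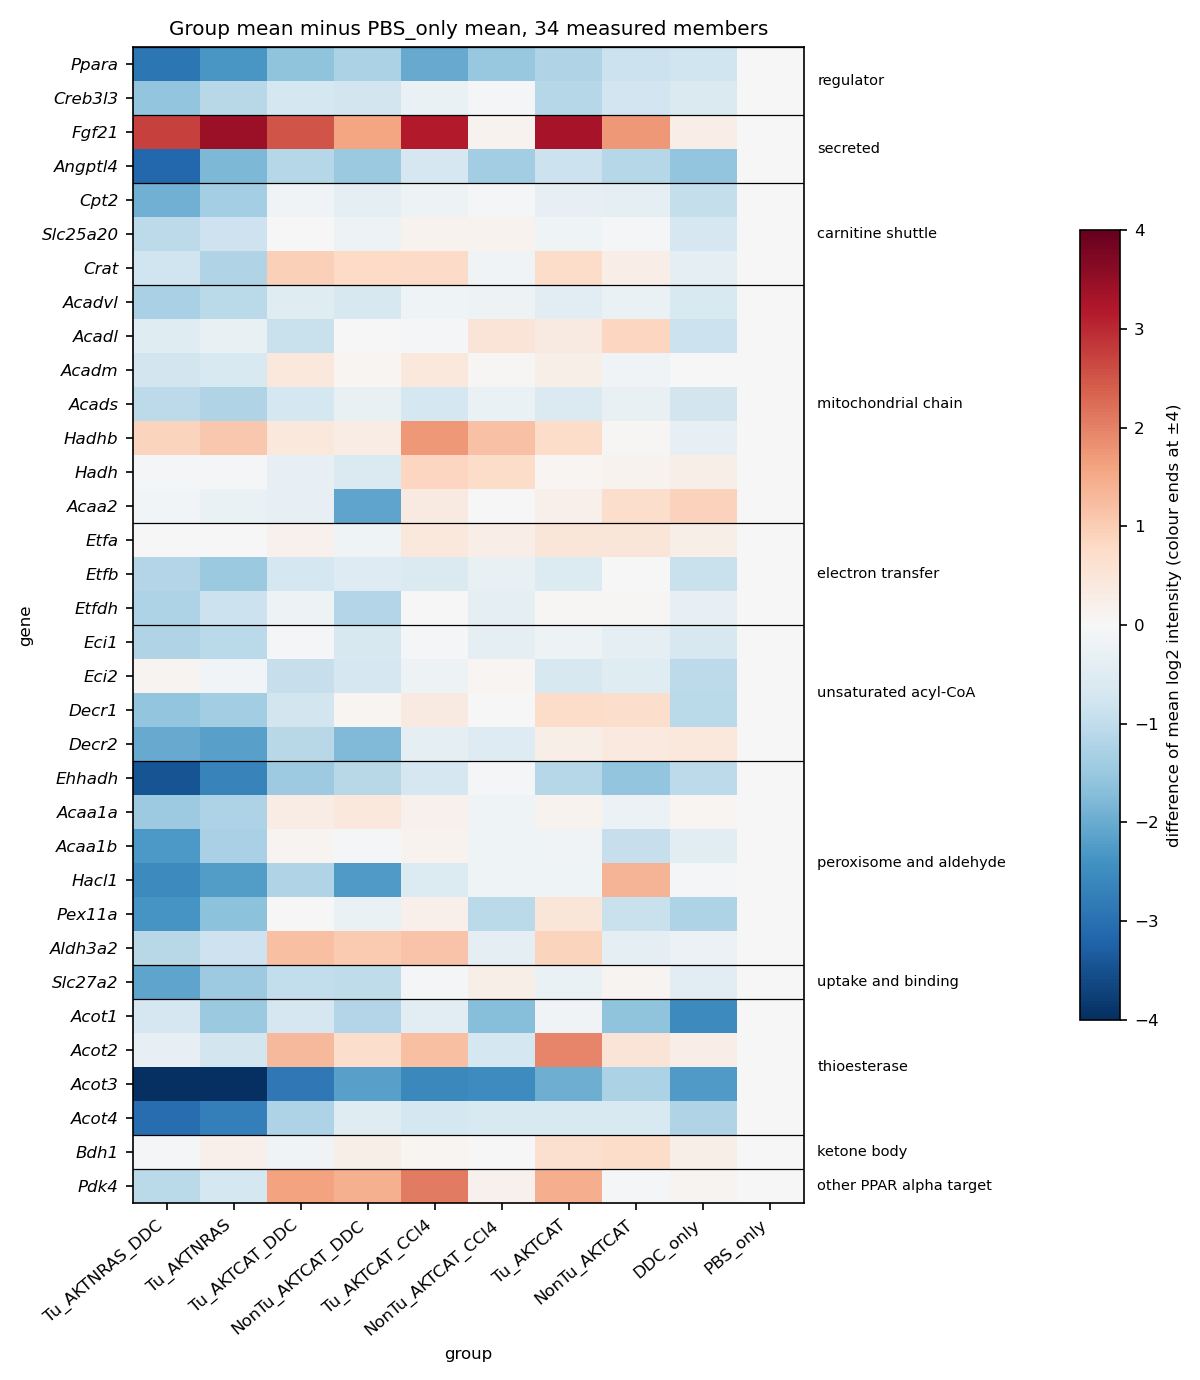
Group mean minus the PBS-only mean (log2 intensity) for the 34 members, ordered by role, in the 10 groups. Most rows of the AKT-NRAS columns lie below the PBS-only level, with Acot3 at -5.65 in AKT-NRAS tumours. The Fgf21 mean lies above the PBS-only mean in every other column. Its arrays in DDC-only livers (6.75 to 7.29) and in non-tumoral tissue with CCl4 (6.60 to 7.38) lie inside the PBS-only range of 5.41 to 8.04.

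Most of the module was lower in AKT-NRAS tumours than in AKT-CAT tumours. Of the 34 members, 27 fell and 0 rose, with a median log2 fold change of -1.0, against 0.04 over all genes. Over all 10765 genes, 37.3% were called, 16.8% lower and 20.5% higher. The fall covered all 3 carnitine shuttle genes, all 3 electron transfer genes, all 6 peroxisome and aldehyde genes and all 4 thioesterases, 4 of 7 mitochondrial chain genes and 3 of 4 genes for unsaturated acyl-CoA. In bulk tissue, fewer hepatocytes and less RNA per hepatocyte cannot be told apart.

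The acyl-CoA thioesterases, which split fatty acyl-CoA into free fatty acid and CoA, had the lowest median of any role, -2.41. Peroxisomal Acot3 stood at 6.81, 5.63, 5.68 and 8.16 in AKT-NRAS tumours, against 10.32, 10.70, 9.34 and 10.74 in AKT-CAT tumours (log2 fold change -3.70 ± 0.44, adjusted p = 6.57e-08). Peroxisomal Acot4 stood at 8.17, 7.10, 7.26 and 7.97 in AKT-NRAS tumours, against 9.86, 9.90, 9.23 and 10.02 in AKT-CAT tumours (log2 fold change -2.13 ± 0.28, adjusted p = 3.85e-07). Neither gene's arrays overlapped between the groups. Mitochondrial Acot2 was not detected in AKT-NRAS tumours and was at least 5.76-fold lower there (adjusted p = 1.45e-07), but its other 2 probes, also naming Acot2, changed by -0.50 and -0.07. Cytosolic Acot1 fell too, at 11.30, 10.43, 10.58 and 10.35 in AKT-NRAS tumours and 12.08, 12.16, 12.73 and 11.08 in AKT-CAT tumours (log2 fold change -1.35 ± 0.45, adjusted p = 0.0176), with overlapping arrays. Its call did not hold without AKT-CAT replicate 3 (adjusted p = 0.0707) or AKT-NRAS replicate 4 (0.0504). Acot1 and Acot2 are close paralogs, and a probe may read both.

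The 6 peroxisome and aldehyde genes had a median of -1.62. Pex11a, which drives peroxisome division, stood at 10.98, 10.63, 10.64 and 10.28 in AKT-NRAS tumours, against 12.75, 12.90, 12.67 and 12.75 in AKT-CAT tumours (log2 fold change -2.14 ± 0.19, adjusted p = 2.1e-10). Its 3 probes gave -2.14, -2.20 and -2.30. Hacl1, a lyase of alpha-oxidation (-2.04), and Aldh3a2, the fatty aldehyde dehydrogenase (-1.72), fell too. Both stood apart on every array. The bifunctional enzyme Ehhadh stood at 8.08, 6.16, 7.02 and 7.69 in AKT-NRAS tumours, against 8.80, 8.50, 9.65 and 8.05 in AKT-CAT tumours (log2 fold change -1.51 ± 0.36, adjusted p = 0.0011), with AKT-NRAS replicate 1 just above the lowest AKT-CAT array. The peroxisomal thiolases Acaa1a (log2 fold change -1.38 ± 0.13, adjusted p = 8.17e-10) and Acaa1b (log2 fold change -1.17 ± 0.26, adjusted p = 0.000556) fell as well. They are near-identical paralogs, so their values may not be independent.

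The median was -1.05 for the carnitine shuttle, -1.49 for unsaturated acyl-CoA, -0.89 for electron transfer and -0.61 for the mitochondrial chain. Crat, the carnitine acetyltransferase, fell by 1.91 on its brightest probe, while its other 2 probes changed by -0.56 and 0.17. Cpt2, which rebuilds acyl-CoA inside the mitochondrion, averaged 10.05 ± 0.25 in AKT-NRAS tumours and 11.10 ± 0.36 in AKT-CAT tumours (SD, n = 4 each, log2 fold change -1.05 ± 0.18, adjusted p = 1.88e-05). The dienoyl-CoA reductases that prepare polyunsaturated fatty acids also fell, with -2.10 for mitochondrial Decr1 and -2.42 for peroxisomal Decr2. Decr1 stood at 7.70, 7.44, 8.0 and 7.75 in AKT-NRAS tumours and 9.92, 9.99, 9.43 and 9.96 in AKT-CAT tumours, without overlap. In the core chain, the medium-chain dehydrogenase Acadm stood at 13.16, 12.26, 12.63 and 12.87 in AKT-NRAS tumours, against 13.70, 13.48, 13.76 and 13.27 in AKT-CAT tumours (log2 fold change -0.82 ± 0.16, adjusted p = 0.000189). The other chain genes called were Acadvl, Acadl and Acads, with log2 fold changes of -0.65, -0.64 and -0.61. The Acadl call was lost without AKT-CAT replicate 1 or 2 or AKT-NRAS replicates 1, 2 or 3 (adjusted p = 0.0523 to 0.0858), and that of Acads without AKT-CAT replicate 1 or 3 or AKT-NRAS replicate 1 or 4 (0.0621 to 0.143). In electron transfer, Etfa lost its call without AKT-CAT replicate 2 or AKT-NRAS replicate 2 (0.0624 and 0.051), and Etfdh without AKT-CAT replicate 3 or 4 or AKT-NRAS replicate 2 or 4 (0.0552 to 0.112). The calls of both Etfa and Etfdh were also lost when the mean of a gene's probes was used. Hadhb, a subunit of the trifunctional protein, changed by 0.34 (adjusted p = 0.173), and Eci2 by 0.52 (adjusted p = 0.0815), the highest value among members not called.

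Of the 2 regulators, Ppara fell and Creb3l3 did not pass the test. Ppara stood at 6.16, 6.16, 5.62 and 5.88 in AKT-NRAS tumours, against 7.09, 7.30, 6.48 and 7.44 in AKT-CAT tumours (log2 fold change -1.12 ± 0.26, adjusted p = 0.000999), and no array overlapped. Creb3l3 stood at 9.47, 9.46, 9.41 and 9.65 in AKT-NRAS tumours and 9.75, 9.41, 9.27 and 9.38 in AKT-CAT tumours (log2 fold change 0.05 ± 0.19, adjusted p = 0.874). The secreted hormone Fgf21 stood at 10.25, 10.52, 9.64 and 10.61 in AKT-NRAS tumours and 11.20, 9.47, 9.85 and 9.99 in AKT-CAT tumours (log2 fold change 0.13 ± 0.54, adjusted p = 0.881). The ranges of Creb3l3 and of Fgf21 overlapped between the tumours. Pdk4, the kinase that shuts pyruvate dehydrogenase when fat is burned, stood at 7.30, 6.42, 7.03 and 6.84 in AKT-NRAS tumours, against 8.29, 8.71, 10.29 and 8.91 in AKT-CAT tumours (log2 fold change -2.15 ± 0.55, adjusted p = 0.00247). Angptl4, a secreted inhibitor of lipoprotein lipase, had 11.13, 10.81, 11.05 and 10.13 in AKT-NRAS tumours and 11.98, 11.29, 11.91 and 11.68 in AKT-CAT tumours (log2 fold change -0.94 ± 0.35, adjusted p = 0.0331). Its call was lost in turn without AKT-CAT replicates 1, 3 or 4 or AKT-NRAS replicates 2 or 4 (adjusted p = 0.0541 to 0.136). Bdh1, the mitochondrial enzyme that makes beta-hydroxybutyrate, had 11.96, 11.73, 11.91 and 12.15 in AKT-NRAS tumours and 12.52, 12.57, 11.75 and 12.61 in AKT-CAT tumours (log2 fold change -0.43 ± 0.21, adjusted p = 0.118).

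The fall rests on a comparison across slides, and slide and driver genes cannot be told apart here. Before normalization 3 of the 4 AKT-NRAS arrays also stood apart: the median probe intensity was 46.2, 11.7, 27.7 and 33.2 in AKT-NRAS tumours, with only replicate 2 inside the range of 9.07 to 13.3 of AKT-CAT tumours. The part of this gap was not tested. With arrays scaled by their medians in place of quantiles, the median of all genes was 0.42 and the members split into 15 lower and 3 higher. Under that scaling 15 of the 27 calls were kept, and those of Ppara (adjusted p = 0.135), Ehhadh (0.184), Angptl4, Acot1, Cpt2, Slc25a20, Eci1, Acadvl, Acads, Etfa and Etfdh were lost, while Acadl turned to 0.0857 (adjusted p = 0.81). The 15 kept calls, Acot2, Acot3, Acot4, Pex11a, Hacl1, Aldh3a2, Acaa1a, Acaa1b, Decr1, Decr2, Crat, Acadm, Etfb, Pdk4 and Slc27a2, held in all 17 alternatives run. Markers of other cells moved with the fall: 5 of 8 stellate and fibroblast markers rose (their mean ranged from 8.49 to 8.71 in AKT-NRAS tumours and from 7.27 to 7.57 in AKT-CAT tumours), and 2 of 4 measured biliary markers rose (6.73 to 7.86 in AKT-NRAS tumours, 4.78 to 7.26 in AKT-CAT tumours). Hepatocyte markers ranged from 10.997 to 11.11 in AKT-NRAS tumours and from 10.70 to 11.12 in AKT-CAT tumours, with 3 of 11 higher and 2 lower. 3 of 7 endothelial markers were lower (6.64 to 7.76 in AKT-NRAS tumours, 7.51 to 8.40 in AKT-CAT tumours), 2 of the 5 Kupffer cell and macrophage markers were lower and 1 higher (6.46 to 8.30 in AKT-NRAS tumours, 7.46 to 8.38 in AKT-CAT tumours), and 2 of 5 neutrophil markers were higher (6.29 to 6.69 in AKT-NRAS tumours, 4.81 to 6.68 in AKT-CAT tumours). The part of these cells in the fall was not tested.

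Among 30 other measured genes of fatty acid handling, 3 rose and 15 fell in AKT-NRAS tumours against AKT-CAT tumours. The changes of greatest size were those of Slc27a1 (1.64, adjusted p = 4.3e-06), Pparg (-1.52, adjusted p = 1.73e-06) and Abcd3 (-1.39, adjusted p = 4.9e-07), a fatty acid transporter, the adipogenic nuclear receptor and a peroxisomal membrane transporter.

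Most of the module was also lower in AKT-NRAS tumours than in PBS-only livers. Of the 34 members, 24 fell and 2 rose, with a median of -1.14, against 0.01 over all genes. On the whole array 50% of genes were called, 23.8% lower and 26.2% higher. The AKT-NRAS arrays are those of the comparison with AKT-CAT tumours, so these counts are not independent of that comparison.

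Acot3 stood at 6.81, 5.63, 5.68 and 8.16 in AKT-NRAS tumours, against 12.29, 12.64 and 11.73 in PBS-only livers (log2 fold change -5.65 ± 0.47, adjusted p = 2.23e-11). Its level was 0.0199 of that in PBS-only livers. Ppara stood at 6.16, 6.16, 5.62 and 5.88 in AKT-NRAS tumours, against 8.75, 8.42 and 7.66 in PBS-only livers (log2 fold change -2.32 ± 0.28, adjusted p = 4.27e-08). Ehhadh stood at 8.08, 6.16, 7.02 and 7.69 in AKT-NRAS tumours, against 10.02, 10.44 and 9.24 in PBS-only livers (log2 fold change -2.66 ± 0.38, adjusted p = 8.55e-07). The arrays of these 3 genes did not overlap. Creb3l3 stood at 9.47, 9.46, 9.41 and 9.65 in AKT-NRAS tumours, against 10.61, 10.90 and 10.29 in PBS-only livers (log2 fold change -1.10 ± 0.20, adjusted p = 3.57e-05). Angptl4 stood at 11.13, 10.81, 11.05 and 10.13 in AKT-NRAS tumours, against 13.04, 12.82 and 11.87 in PBS-only livers (log2 fold change -1.80 ± 0.38, adjusted p = 0.000175). Acot4 (-2.72), Hacl1 (-2.22), Decr2 (-2.18), Pex11a (-1.65) and Etfb (-1.49) completed the steepest falls.

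Fgf21 went the other way. It stood at 10.25, 10.52, 9.64 and 10.61 in AKT-NRAS tumours, against 8.04, 7.01 and 5.41 in PBS-only livers (log2 fold change 3.44 ± 0.59, adjusted p = 1.19e-05), and every tumour array exceeded every PBS-only array. Hadhb also rose, to 12.07, 11.52, 11.66 and 11.67 in AKT-NRAS tumours, against 10.92, 10.74 and 10.30 in PBS-only livers (log2 fold change 1.08 ± 0.21, adjusted p = 6.73e-05). Pdk4 had 7.30, 6.42, 7.03 and 6.84 in AKT-NRAS tumours and 9.36, 8.03 and 5.38 in PBS-only livers (log2 fold change -0.69 ± 0.60, adjusted p = 0.355). The PBS-only arrays of Pdk4 spanned the whole range of the tumours, with replicate 3 the lowest of all. Acadm fell to 13.16, 12.26, 12.63 and 12.87 in AKT-NRAS tumours, against 13.44, 13.51 and 13.05 in PBS-only livers (log2 fold change -0.60 ± 0.18, adjusted p = 0.00525). Bdh1 had 11.96, 11.73, 11.91 and 12.15 in AKT-NRAS tumours and 12.09, 11.80 and 11.32 in PBS-only livers (log2 fold change 0.20 ± 0.23, adjusted p = 0.5). Acot1 averaged 10.66 ± 0.44 in AKT-NRAS tumours (SD, n = 4) and 12.14 ± 1.21 in PBS-only livers (SD, n = 3), and its call (log2 fold change -1.47 ± 0.48, adjusted p = 0.0119) was lost without PBS-only replicate 1 (adjusted p = 0.138) or 2 (0.0503).

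These groups also lie on separate slides, which cannot be told apart from the tumours. Median scaling ended the calls of Creb3l3 (adjusted p = 0.0926), Slc25a20, Crat, Etfdh, Decr1 and Acot1. Etfdh was also lost without PBS-only replicate 1 or 2 or AKT-NRAS replicates 2, 3 or 4 (adjusted p = 0.0521 to 0.216). Using the mean of its probes ended that call as well. Without PBS-only replicate 3 the count was 28. The median probe intensity of PBS-only arrays before normalization was 10.3 to 11.3, below that of every AKT-NRAS array. Stellate markers averaged 8.64 in AKT-NRAS tumours and 6.77 in PBS-only livers (5 of 8 higher and 1 lower). All 5 Kupffer cell and macrophage markers were called, 4 lower and 1 higher, with means of 6.46 to 8.30 in AKT-NRAS tumours and 8.41 to 9.05 in PBS-only livers. 3 of 7 endothelial markers were lower and 2 of 5 neutrophil markers higher. Biliary markers averaged 7.26 in AKT-NRAS tumours and 4.72 in PBS-only livers, and hepatocyte markers 11.04 in AKT-NRAS tumours and 11.27 in PBS-only livers (1 of 11 higher and 4 lower). The part of these cells and of the intensity gap was not tested. Among the 30 other pathway genes, 4 rose and 16 fell, led by Cyp4a14 (-3.94, adjusted p = 6.22e-05), a fatty acid omega-hydroxylase, Lpl (2.80, adjusted p = 1.58e-07), which frees fatty acids from triglyceride, and the coactivator Ppargc1b (-2.65, adjusted p = 3.51e-07).

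AKT-CAT tumours differed from PBS-only livers in both directions: 6 rose and 6 fell of the 34 members, with a median of -0.04. Over all genes 30.2% were called, 14.8% higher and 15.4% lower, so the members' count lies near that of all genes. With median scaling the split was 2 higher and 7 lower, and without PBS-only replicate 3 it was 3 higher and 8 lower. Without PBS-only replicate 1 it leaned the other way, with 10 higher and 5 lower. Both groups also enter the comparisons with AKT-NRAS tumours, so the counts are not independent.

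Fgf21 stood at 11.20, 9.47, 9.85 and 9.99 in AKT-CAT tumours, against 8.04, 7.01 and 5.41 in PBS-only livers (log2 fold change 3.31 ± 0.59, adjusted p = 7.33e-05), with no overlap. Acot2 rose by 1.96 (adjusted p = 0.00011), with PBS-only replicate 1 inside the tumour range, and its other 2 probes changed by -0.03 and -0.41. Acot3 fell to 10.32, 10.70, 9.34 and 10.74 in AKT-CAT tumours, against 12.29, 12.64 and 11.73 in PBS-only livers (log2 fold change -1.95 ± 0.47, adjusted p = 0.002). Ppara stood at 7.09, 7.30, 6.48 and 7.44 in AKT-CAT tumours, against 8.75, 8.42 and 7.66 in PBS-only livers (log2 fold change -1.20 ± 0.28, adjusted p = 0.00164). Creb3l3 stood at 9.75, 9.41, 9.27 and 9.38 in AKT-CAT tumours, against 10.61, 10.90 and 10.29 in PBS-only livers (log2 fold change -1.15 ± 0.20, adjusted p = 7.24e-05). Both regulators were thus lower in AKT-CAT tumours on all 4 arrays than on any PBS-only array. Ehhadh fell (log2 fold change -1.15 ± 0.38, adjusted p = 0.0228) with overlapping arrays, and its call was lost without PBS-only replicates 1 or 2 or AKT-CAT replicates 2 or 4 (adjusted p = 0.0563 to 0.146). Bdh1 rose by 0.63 (adjusted p = 0.0386), a call lost without any of PBS-only replicates 2 and 3 and AKT-CAT replicates 1, 2 and 4 (adjusted p = 0.0736 to 0.246). Hadhb rose by 0.74, a call lost without PBS-only replicate 3 (adjusted p = 0.0772), and Etfa by 0.48, lost without PBS-only replicate 2 or 3 or AKT-CAT replicate 2 or 4 (0.0749 to 0.375). Acadm (0.22, adjusted p = 0.373), Pdk4 (1.46, 0.061), Acot1 (-0.12, 0.872) and Angptl4 (-0.86, 0.0807) did not pass the test.

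With slide as a fixed block, which links these groups through AKT-CAT tumours given DDC, 6 members were called. Fgf21 (3.55, adjusted p = 0.0258), Acot2 (2.04, adjusted p = 0.0333), Acot3 (-2.52, adjusted p = 0.0439), Creb3l3 (-1.29, adjusted p = 0.0183) and Etfb (-0.83, adjusted p = 0.043) kept their calls, while Ppara (-1.23, adjusted p = 0.105) and Ehhadh (-1.38, adjusted p = 0.171) did not. In the other pathway genes 4 rose and 9 fell of 30, led by Cyp4a14 (-2.31, adjusted p = 0.0202), Lpl (1.84, adjusted p = 0.000309) and Pparg (1.80, adjusted p = 7.85e-07). Stellate markers averaged 7.42 in AKT-CAT tumours and 6.77 in PBS-only livers (3 of 8 higher). 2 of 5 Kupffer cell and macrophage, 2 of 11 hepatocyte and 1 of 7 endothelial markers were lower, and the part of these cells was not tested.

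**Figure D2:**
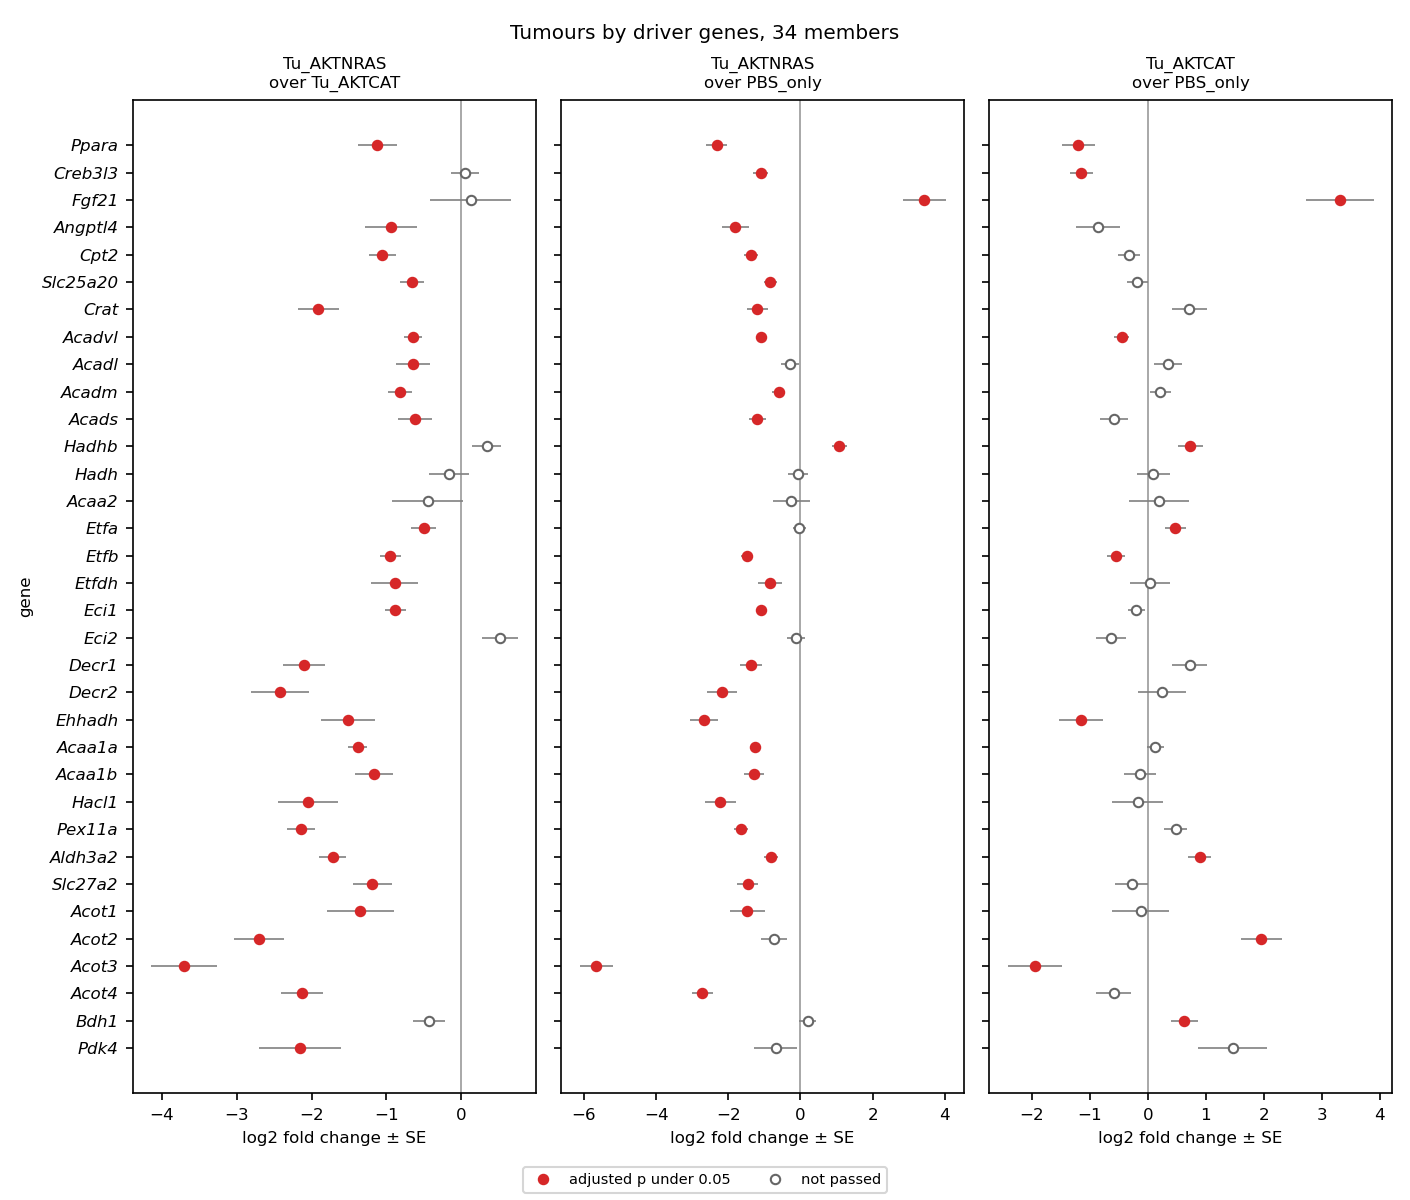
Log2 fold change ± SE of the 34 members in AKT-NRAS tumours over AKT-CAT tumours (left), AKT-NRAS tumours over PBS-only livers (middle) and AKT-CAT tumours over PBS-only livers (right). Filled red points passed an adjusted p of 0.05. Most points of the first 2 panels lie left of 0, with Acot3 farthest at -3.70 and -5.65, while the right panel spreads to both sides.

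Non-tumoral AKT-CAT tissue differed from PBS-only livers in 8 members, 3 higher and 5 lower, where 15.2% of all genes were called (7.47% higher and 7.73% lower). The steepest were Acot1 (log2 fold change -1.61 ± 0.52, adjusted p = 0.033), Ehhadh (log2 fold change -1.58 ± 0.41, adjusted p = 0.00963) and Hacl1 (log2 fold change 1.34 ± 0.46, adjusted p = 0.047). None of the 8 calls held once slide entered the fit as a fixed block. With slide as a random block (within-slide correlation -0.0101) all 8 were kept and 10 members were called. The count was 1 without PBS-only replicate 2, 4 without non-tumoral replicate 1 and 2 without non-tumoral replicate 2. The direction of the split turned on the PBS-only arrays: it was 0 higher and 8 lower without replicate 3, and 7 higher and 2 lower without replicate 1. Under median scaling 16 members were lower and 0 higher. 4 of 8 stellate and fibroblast markers were higher, with means of 7.37 to 8.64 in non-tumoral tissue and 6.63 to 6.85 in PBS-only livers, as were 2 of 5 neutrophil markers (6.16 to 7.74 in non-tumoral tissue, 4.86 to 5.41 in PBS-only livers) and 1 of 7 endothelial markers. The part of these cells was not tested.

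Part of the module was lower in DDC-only livers, which the labels list as control tissue. There 14 of the 34 members fell and 0 rose, against PBS-only livers on the same slide, with a median of -0.52, against -0.04 over all genes. Among all genes 22.8% were called, 11.6% lower and 11.1% higher. The arrays did not overlap for 12 of the members, near the 35.6% of all genes.

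Of the 4 thioesterases, 3 fell. Acot1 stood at 8.79, 10.47 and 9.53 in DDC-only livers, against 13.19, 12.41 and 10.82 in PBS-only livers (log2 fold change -2.54 ± 0.52, adjusted p = 0.000503), and its second probe gave -2.42. Acot3 stood at 10.92, 9.26 and 9.71 in DDC-only livers, against 12.29, 12.64 and 11.73 in PBS-only livers (log2 fold change -2.25 ± 0.50, adjusted p = 0.00131). Acot4 fell by 1.21 (adjusted p = 0.00591). Pex11a stood at 10.71, 11.06 and 11.34 in DDC-only livers, against 12.79, 12.24 and 11.82 in PBS-only livers (log2 fold change -1.24 ± 0.21, adjusted p = 6.42e-05), and its 3 probes gave -1.24, -2.44 and -1.75. For Acot1, Acot3, Acot4 and Pex11a every DDC-only array lay below every PBS-only array.

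In mitochondria, Cpt2 stood at 10.69, 10.24 and 10.51 in DDC-only livers, against 11.45, 11.45 and 11.38 in PBS-only livers (log2 fold change -0.95 ± 0.20, adjusted p = 0.000883). Etfb, the beta subunit of the electron transfer flavoprotein, stood at 12.69, 12.92 and 12.93 in DDC-only livers, against 13.60, 13.79 and 13.81 in PBS-only livers (log2 fold change -0.89 ± 0.17, adjusted p = 0.000195). No DDC-only array of these 2 genes reached the PBS-only range. Eci2 (-1.06), Acadvl (-0.61) and Eci1 (-0.62), 2 isomerases and the very long chain dehydrogenase, also fell without overlap. Acadl fell by 0.86 on its brightest probe, while its other 2 probes gave 0.63 and -0.18, and Decr1 fell by 1.07. Both overlapped, and both calls were lost without DDC-only replicate 1 or PBS-only replicate 1 (adjusted p of 0.0693 and 0.157 for Acadl, 0.153 and 0.115 for Decr1). Acadl was also lost without DDC-only replicate 2 (0.0715). Acads, the short-chain dehydrogenase (-0.74), lost its call without any of DDC-only replicates 1 and 3 and PBS-only replicates 1, 2 and 3 (0.0598 to 0.179), and Slc25a20, the acylcarnitine carrier (-0.67), without DDC-only replicate 3 (0.0507) or PBS-only replicate 2 (0.051). Acadm stood at 13.44, 13.35 and 13.27 in DDC-only livers and 13.44, 13.51 and 13.05 in PBS-only livers (log2 fold change 0.02 ± 0.19, adjusted p = 0.952).

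Angptl4 stood at 10.82, 12.11 and 10.08 in DDC-only livers, against 13.04, 12.82 and 11.87 in PBS-only livers (log2 fold change -1.58 ± 0.40, adjusted p = 0.00441). Replicate 2 of the DDC-only livers overlapped the PBS-only range, and the call was lost without DDC-only replicate 3 (adjusted p = 0.0638). Ppara had 7.96, 7.19 and 7.27 in DDC-only livers and 8.75, 8.42 and 7.66 in PBS-only livers (log2 fold change -0.80 ± 0.30, adjusted p = 0.0528). Creb3l3 had 10.50, 10.07 and 9.53 in DDC-only livers and 10.61, 10.90 and 10.29 in PBS-only livers (log2 fold change -0.57 ± 0.22, adjusted p = 0.0569). Neither regulator passed the test, and both overlapped between the groups. Ehhadh (log2 fold change -1.05 ± 0.41, adjusted p = 0.0623), Fgf21 (log2 fold change 0.28 ± 0.63, adjusted p = 0.804), Bdh1 (log2 fold change 0.24 ± 0.25, adjusted p = 0.537) and Pdk4 (log2 fold change 0.10 ± 0.64, adjusted p = 0.937) did not pass, and Acaa2, the mitochondrial thiolase, had the highest value of those not called (log2 fold change 0.93 ± 0.55, adjusted p = 0.237).

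The calls of Acot1, Acot3, Acot4, Pex11a, Cpt2, Eci2, Etfb and Acadvl held in all 16 alternatives, and without PBS-only replicate 3 the count was 16. Stellate markers ranged from 7.92 to 8.16 in DDC-only livers and from 6.63 to 6.85 in PBS-only livers (4 of 8 higher), and hepatocyte markers from 10.84 to 11.11 in DDC-only livers and from 11.18 to 11.40 in PBS-only livers (2 of 11 lower). Biliary markers ranged from 5.16 to 5.85 in DDC-only livers and from 4.54 to 4.92 in PBS-only livers (2 of 4 higher), and 1 of 5 Kupffer cell and macrophage markers was lower. The part of these cells was not tested. In the other pathway genes 3 rose and 14 fell of 30, led by Cyp4a14 (-5.05, adjusted p = 2.42e-05), Lpl (3.95, adjusted p = 6.63e-09) and the monoglyceride lipase Mgll (-1.85, adjusted p = 1.23e-05).

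In AKT-NRAS tumours, which shared 1 slide, 3 of 34 members fell with DDC and 0 rose, with a median of -0.21. Over all genes 2.02% were called, 1.45% lower and 0.567% higher. Angptl4 stood at 9.57, 8.84, 9.99 and 9.29 in AKT-NRAS tumours with DDC, against 11.13, 10.81, 11.05 and 10.13 without DDC (log2 fold change -1.35 ± 0.35, adjusted p = 0.0334). Acaa1b stood at 12.16, 11.66, 12.89 and 13.04 with DDC, against 13.34, 13.21, 13.65 and 13.57 without DDC (log2 fold change -1.01 ± 0.26, adjusted p = 0.0323). Pex11a stood at 9.90, 9.78, 9.91 and 10.14 with DDC, against 10.98, 10.63, 10.64 and 10.28 without DDC (log2 fold change -0.70 ± 0.19, adjusted p = 0.0397). In these 3 genes no array overlapped, and 5 members in all did not overlap, against 10.9% of all genes. The calls were fragile: 0 members were called by limma without AKT-NRAS replicate 1 or 3 or AKT-NRAS DDC replicate 1 or 2 (6 to 8 at an unadjusted p under 0.05), and 1 without AKT-NRAS DDC replicate 4. Ehhadh (6.66, 6.54, 6.14 and 6.45 with DDC, 8.08, 6.16, 7.02 and 7.69 without, log2 fold change -0.79 ± 0.36, adjusted p = 0.329) and Acot1 (11.52, 11.52, 11.88 and 10.92 with DDC, 11.30, 10.43, 10.58 and 10.35 without, log2 fold change 0.80 ± 0.45, adjusted p = 0.492) marked the ends among the other members. Stellate markers fell with DDC (3 of 8 lower, mean 7.79 with DDC and 8.64 without), as did 1 of 5 Kupffer cell and macrophage and 1 of 4 T and NK cell markers, while 1 of 4 biliary markers rose. The median probe intensity before normalization was 11.01 to 15.4 with DDC and 11.7 to 46.2 without it. The part of these cells and of intensity in the 3 changes was not tested. Of the 30 other pathway genes 0 rose and 2 fell, Acot12 (-1.32, adjusted p = 0.00138) and Mgll (-0.95, adjusted p = 0.0343).

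In AKT-CAT tumours, 4 of 34 members fell with DDC and 0 rose, with a median of -0.30. Over all genes 13.5% were called, 5.92% lower and 7.59% higher, so the members' count lies near that of all genes. Both dienoyl-CoA reductases were among the 4. Decr1 stood at 7.93, 9.25, 7.97 and 8.31 in AKT-CAT tumours with DDC, against 9.92, 9.99, 9.43 and 9.96 without DDC (log2 fold change -1.46 ± 0.28, adjusted p = 0.000777), and Decr2 at 6.70, 8.30, 6.54 and 6.74 with DDC, against 7.53, 8.78, 8.42 and 9.02 without DDC (log2 fold change -1.37 ± 0.38, adjusted p = 0.0165). Replicate 2 with DDC was the highest Decr2 array of its group. Acadl stood at 7.04, 7.76, 7.47 and 7.88 with DDC, against 9.07, 8.84, 8.62 and 8.56 without DDC (log2 fold change -1.24 ± 0.23, adjusted p = 0.000513), and its other 2 probes gave -0.82 and -0.07. Bdh1 stood at 11.29, 11.97, 11.43 and 11.65 with DDC, against 12.52, 12.57, 11.75 and 12.61 without DDC (log2 fold change -0.78 ± 0.21, adjusted p = 0.015), with overlap. Acadl and Decr1 held in all 18 alternatives, among them slide as a fixed block (-1.17, adjusted p = 0.0297 for Acadl, -1.64, adjusted p = 0.0119 for Decr1). Decr2 (-1.60, adjusted p = 0.0608) and Bdh1 (-0.74, adjusted p = 0.143) lost their calls with that block. Leaving out AKT-CAT DDC replicate 1 or AKT-CAT replicate 2 or 4 ended the calls of both (0.052 to 0.0691 for Decr2, 0.0502 to 0.0717 for Bdh1) and left a count of 2, and AKT-CAT DDC replicate 3 ended that of Decr2 (0.0655). Median scaling split the members into 1 higher and 2 lower. Markers were lower with DDC in several lists: 4 of 11 for hepatocytes (10.12 to 10.54 with DDC, 10.70 to 11.12 without), 3 of 5 for Kupffer cells and macrophages (5.66 to 6.93 with DDC, 7.46 to 8.38 without), 3 of 7 for endothelium (5.90 to 6.75 with DDC, 7.51 to 8.40 without) and 1 of 5 for neutrophils, while 1 of 8 stellate markers was higher and 1 lower. Their part in the 4 falls was not tested. Ppara (-0.41, adjusted p = 0.321), Creb3l3 (0.43, 0.127), Fgf21 (-0.77, 0.372), Acadm (0.22, 0.412), Ehhadh (-0.30, 0.632), Acot1 (-0.53, 0.47), Angptl4 (-0.29, 0.628) and Pdk4 (0.15, 0.897) did not pass. Among the other pathway genes 4 rose and 1 fell of 30, led by Slc27a1 (1.19, adjusted p = 0.00183), Lpl (1.16, adjusted p = 0.0211) and Acadsb (-1.07, adjusted p = 0.00133), a dehydrogenase of short branched chains.

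Non-tumoral AKT-CAT tissue with DDC differed from that without DDC in 12 members, 4 higher and 8 lower, where 18.1% of all genes were called (10.3% higher and 7.8% lower). Hacl1 stood at 5.45, 4.97 and 5.61 with DDC, against 9.45, 8.26 and 9.12 without DDC (log2 fold change -3.60 ± 0.46, adjusted p = 9.45e-07). Acaa2 stood at 10.21, 9.39 and 8.49 with DDC, against 12.30, 11.65 and 12.52 without DDC (log2 fold change -2.79 ± 0.55, adjusted p = 0.00044), and 2 further probes gave -2.87 and -2.73 while the fourth gave -0.84. Aldh3a2 rose to 14.16, 13.96 and 14.30 with DDC, against 12.79, 12.50 and 12.80 without DDC (log2 fold change 1.44 ± 0.21, adjusted p = 8.89e-06). In each of these 3 genes the arrays were far apart. Decr2 fell by 2.17 (adjusted p = 0.000652), and Acaa1a rose by 0.68 (adjusted p = 0.00146). The other 7 calls, of Acaa1b, Acadl, Etfa, Etfb, Etfdh, Pex11a and Slc27a2, were each lost without at least 1 single array, such as non-tumoral replicate 2 without DDC for Acaa1b (0.378) and Pex11a (0.168). The 2 groups lie on different slides. With slide as a fixed block, which links them through AKT-CAT tumours, all 12 calls were lost. Hacl1 then had -2.76, adjusted p = 0.0604, Acaa2 -2.14, adjusted p = 0.311, Decr2 -1.40, adjusted p = 0.43 and Aldh3a2 0.90, adjusted p = 0.227. With slide as a random block (within-slide correlation -0.0101) all 12 were kept. Median scaling moved the median of all genes to 0.50 and gave 12 higher and 3 lower members, of which 7 were among the 12. 4 of 11 hepatocyte markers were lower with DDC, with means of 10.56 to 10.75 with DDC and 11.29 to 11.50 without it, which did not overlap. 2 of 5 neutrophil markers (4.74 to 5.19 with DDC, 6.16 to 7.74 without), 1 of 5 Kupffer cell and macrophage and 1 of 7 endothelial markers were also lower, and the part of these cells was not tested. Of the 30 other pathway genes 4 rose and 3 fell, led by Abcd2 (-2.34, adjusted p = 5.48e-06), a peroxisomal transporter, Lpl (1.51, adjusted p = 0.0066) and Pparg (1.47, adjusted p = 6.29e-05).

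The response to DDC was compared directly between tissues. The change with DDC in AKT-NRAS tumours minus that in AKT-CAT tumours passed the test for 2 of 34 members, both negative: Acaa1b (log2 difference -1.26 ± 0.36, adjusted p = 0.0485) and Creb3l3 (log2 difference -0.92 ± 0.27, adjusted p = 0.0485). Over all genes 3.54% were called, 1.81% negative and 1.73% positive. Creb3l3 stood at 9.32, 8.62, 9.09 and 9.02 in AKT-NRAS tumours with DDC and 9.47, 9.46, 9.41 and 9.65 without it, and at 10.19, 9.41, 9.69 and 10.24 in AKT-CAT tumours with DDC and 9.75, 9.41, 9.27 and 9.38 without it. With slide as a fixed block, Acaa1b had -1.20, adjusted p = 0.183 and Creb3l3 -0.98, adjusted p = 0.136. Neither call held in every fit with 1 array left out, and the direction of the count was not stable. The count was 0 by limma without AKT-CAT DDC replicates 1, 3 or 4, AKT-CAT replicate 2 or 4, AKT-NRAS replicates 1, 3 or 4 or AKT-NRAS DDC replicate 2 (8 to 11 at an unadjusted p under 0.05). It was 1 without AKT-CAT replicate 1, AKT-NRAS replicate 2 or AKT-NRAS DDC replicates 1, 3 or 4, and 4, of which 3 were positive and 1 negative, without AKT-CAT DDC replicate 2. A fit of the compared groups alone also gave 3 positive and 1 negative. Without AKT-CAT replicate 3, 1 member was positive and 1 negative, and neither was Acaa1b (adjusted p = 0.0583) or Creb3l3 (0.0686). Under median scaling 8 were negative and 0 positive. 3 of 11 hepatocyte markers had a positive difference and 1 of 8 stellate markers a negative one, and their part was not tested. The change with DDC in AKT-CAT tumours minus that in non-tumoral tissue passed for 3 members: Hacl1 (log2 difference 2.57 ± 0.61, adjusted p = 0.0134), Aldh3a2 (log2 difference -1.13 ± 0.28, adjusted p = 0.0188) and Pex11a (log2 difference -1.07 ± 0.28, adjusted p = 0.0282). Over all genes 3.5% were called, 2.54% negative and 0.966% positive. With slide as a fixed block these were 1.79, adjusted p = 0.447 for Hacl1, -0.59, adjusted p = 0.612 for Aldh3a2 and -1.10, adjusted p = 0.256 for Pex11a, and 0 members were called by limma (4 at an unadjusted p under 0.05). The calls of Aldh3a2 (0.0677 and 0.0726) and Pex11a (0.093 and 0.135) were lost without non-tumoral replicate 2 or non-tumoral DDC replicate 3, which left a count of 1. Pex11a was also lost without AKT-CAT replicate 2 (0.0502) or AKT-CAT DDC replicate 3 (0.0625), and median scaling gave 0 positive and 2 negative.

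**Figure D3:**
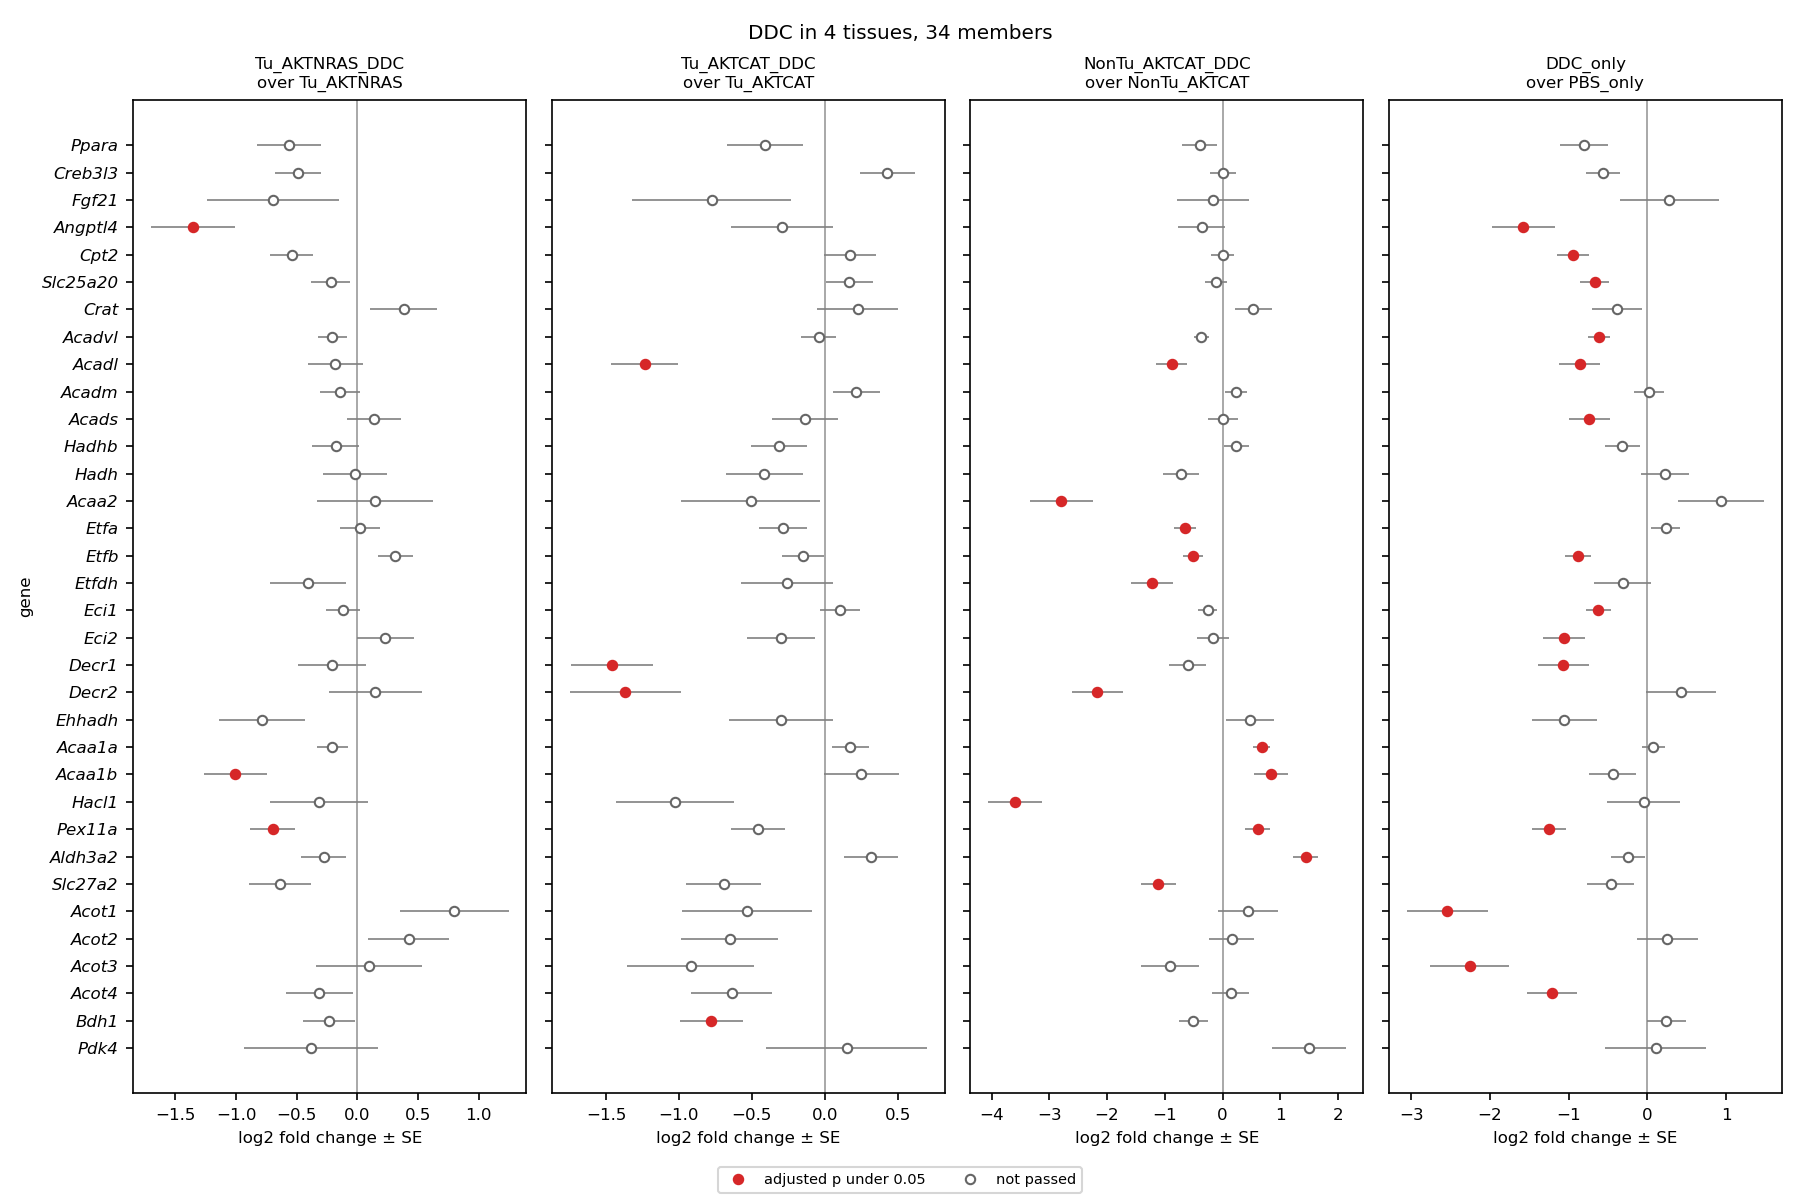
Log2 fold change ± SE of the 34 members with DDC, in AKT-NRAS tumours, AKT-CAT tumours, non-tumoral AKT-CAT tissue and DDC-only livers over PBS-only livers, one panel each. Filled red points passed an adjusted p of 0.05. The 14 falls of the DDC-only livers reach -2.54 (Acot1), and the non-tumoral panel spreads from -3.60 (Hacl1) to 1.44 (Aldh3a2).

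Within AKT-CAT livers, tumours were set against non-tumoral tissue in 3 settings. Without injury 5 members rose and 2 fell in tumours, with a median of 0.01, where 11.3% of all genes were called (5.95% higher and 5.4% lower). Pex11a stood at 12.75, 12.90, 12.67 and 12.75 in tumours, against 11.64, 11.19 and 11.39 in non-tumoral tissue (log2 fold change 1.36 ± 0.20, adjusted p = 1.58e-05). Aldh3a2 stood at 14.22, 13.95, 14.24 and 13.59 in tumours, against 12.79, 12.50 and 12.80 in non-tumoral tissue (log2 fold change 1.30 ± 0.20, adjusted p = 2.91e-05). Every tumour array of both genes exceeded every non-tumoral array. Acot2 rose by 1.43 (adjusted p = 0.0079), while its other 2 probes gave -0.63 and 0.21, and the call was lost without non-tumoral replicate 2 (adjusted p = 0.0715). Acot1 stood at 12.08, 12.16, 12.73 and 11.08 in tumours and 10.86, 9.13 and 11.58 in non-tumoral tissue (log2 fold change 1.49 ± 0.48, adjusted p = 0.0419), and its call was lost without any of tumour replicates 1, 2 and 3 and non-tumoral replicates 1 and 2 (adjusted p = 0.057 to 0.385). Hacl1 fell by 1.52 (adjusted p = 0.0201), a call lost without tumour replicate 1 (0.0589) or non-tumoral replicate 1 (0.11) or 3 (0.0612). Hadhb (0.69) lost its call without tumour replicate 1 or 3 or non-tumoral replicate 2 (0.0687 to 0.21), and Etfb (-0.53) without tumour replicate 3 or non-tumoral replicate 2 or 3 (0.0548 to 0.0767).

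Only tumour replicate 4 shared a slide with the 3 non-tumoral arrays. With slide as a fixed block Pex11a alone kept its call (1.34, adjusted p = 0.0118), while Aldh3a2 had 0.89, adjusted p = 0.0923, Acot2 1.70, adjusted p = 0.0951, Hadhb 0.34, adjusted p = 0.678 and Hacl1 -0.89, adjusted p = 0.573. With slide as a random block all 7 calls were kept. The count was 4 without tumour replicate 1 or 3 or non-tumoral replicate 2. Median scaling gave 9 higher and 0 lower. Fgf21 had 11.20, 9.47, 9.85 and 9.99 in tumours and 9.06, 10.52 and 6.10 in non-tumoral tissue (log2 fold change 1.57 ± 0.59, adjusted p = 0.0807), where non-tumoral replicate 2 lay inside the tumour range. Pdk4 had 8.29, 8.71, 10.29 and 8.91 in tumours and 6.99, 6.47 and 9.10 in non-tumoral tissue (log2 fold change 1.53 ± 0.60, adjusted p = 0.0948). Among the other pathway genes 2 rose and 2 fell of 30, led by Pparg (1.47, adjusted p = 4.9e-05), Abcd2 (-1.25, adjusted p = 0.00794) and Slc27a5 (-0.86, adjusted p = 0.0079). Hepatocyte markers ranged from 10.70 to 11.12 in tumours and from 11.29 to 11.50 in non-tumoral tissue (3 of 11 lower). 2 of 5 neutrophil, 1 of 5 Kupffer cell and macrophage and 1 of 8 stellate markers were lower too, and the part of these cells was not tested.

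With CCl4, where all 8 arrays shared a slide, 7 members rose in tumours and 0 fell, with a median of 0.15, while 15.3% of all genes were called, 7.85% higher and 7.46% lower. Fgf21 stood at 10.02, 9.94, 9.91 and 10.10 in tumours, against 7.07, 6.60, 7.38 and 6.78 in non-tumoral tissue (log2 fold change 3.03 ± 0.54, adjusted p = 0.000161). Pdk4 stood at 9.64, 9.04, 9.99 and 9.99 in tumours, against 8.28, 6.92, 7.82 and 8.07 in non-tumoral tissue (log2 fold change 1.89 ± 0.55, adjusted p = 0.0166), a call lost without tumour replicate 4 (adjusted p = 0.0502) or non-tumoral replicate 2 (0.0622). Aldh3a2 stood at 13.87, 14.13, 14.30 and 14.61 in tumours, against 12.62, 12.68, 13 and 12.54 in non-tumoral tissue (log2 fold change 1.52 ± 0.18, adjusted p = 4.17e-07). Pex11a stood at 12.46, 12.12, 12.56 and 12.75 in tumours, against 11.17, 11, 11.46 and 11.23 in non-tumoral tissue (log2 fold change 1.26 ± 0.19, adjusted p = 1.1e-05). None of these 4 genes overlapped between tumour and non-tumoral arrays, and 11 of 34 members did not, against 16% of all genes.

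Acot2 was at least 2.57-fold higher (adjusted p = 0.000112), since its probe was below background in non-tumoral tissue, but its other 2 probes gave -0.51 and -0.12 and the mean of the 3 was not called (adjusted p = 0.0911). Crat (log2 fold change 0.93 ± 0.28, adjusted p = 0.0186) and Hadhb (log2 fold change 0.57 ± 0.19, adjusted p = 0.0395) overlapped, and each call was lost without single arrays (adjusted p = 0.0659 to 0.0927 without tumour replicate 1 or non-tumoral replicate 1 or 4 for Crat, and 0.052 to 0.192 without any array but tumour replicate 1 for Hadhb). Acot1 had 10.76, 11.92, 12.11 and 12.11 in tumours and 9.92, 10.51, 10.52 and 10.83 in non-tumoral tissue (log2 fold change 1.28 ± 0.45, adjusted p = 0.0503). Ppara (-0.51, adjusted p = 0.203), Creb3l3 (-0.23, 0.462), Angptl4 (0.73, 0.165), Acadm (0.39, 0.11), Bdh1 (0.04, 0.935) and Ehhadh (-0.59, 0.292) did not pass. Of the 30 other pathway genes 5 rose and 5 fell, led by Cyp4a14 (-2.73, adjusted p = 0.00636), Pparg (1.19, adjusted p = 0.000188) and Slc27a5 (-1.15, adjusted p = 0.000102), a bile acid and fatty acid CoA ligase. Markers of other cells were lower in the tumours: 5 of 5 Kupffer cell markers, 4 of 5 neutrophil markers and 4 of 7 endothelial markers fell, and hepatocyte markers averaged 10.98 in tumours and 11.66 in non-tumoral tissue (5 of 11 lower). 2 of 8 stellate markers were lower and 1 of 4 biliary markers higher. Their part in the 7 rises was not tested.

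With DDC, 2 members rose and 1 fell in tumours against non-tumoral tissue, where 6.08% of all genes were called (2.65% higher and 3.43% lower). Acaa2 stood at 11.27, 11.79, 10.65 and 10.89 in tumours, against 10.21, 9.39 and 8.49 in non-tumoral tissue (log2 fold change 1.79 ± 0.51, adjusted p = 0.0347). Another 2 probes of Acaa2 gave 1.77 and 1.74 and the fourth 0.15. Eci1 rose (log2 fold change 0.54 ± 0.15, adjusted p = 0.0292) and Acadl fell (log2 fold change -0.86 ± 0.25, adjusted p = 0.0339), although the other 2 Acadl probes gave 1.08 and -0.12. None of the 3 calls held with slide as a fixed block (1.41, adjusted p = 0.342 for Acaa2, 0.51, adjusted p = 0.244 for Eci1 and -0.72, adjusted p = 0.316 for Acadl), while a random block kept all 3. Acaa2 was also lost without tumour replicate 2 (0.0907) and Acadl without tumour replicate 3 (0.0645). The count was 0 by limma without tumour replicate 1 or non-tumoral replicate 2 or 3 (6 to 8 at an unadjusted p under 0.05) and 5 without non-tumoral replicate 1, and median scaling left 1 higher and 0 lower. Pex11a (12.34, 12.37, 12.05 and 12.47 in tumours, 11.87, 11.82 and 12.36 in non-tumoral tissue, log2 fold change 0.29 ± 0.20, adjusted p = 0.415) and Aldh3a2 (14.21, 14.17, 14.41 and 14.47 in tumours, 14.16, 13.96 and 14.30 in non-tumoral tissue, log2 fold change 0.17 ± 0.20, adjusted p = 0.661) did not pass. 4 of 5 Kupffer cell and macrophage markers were lower in these tumours, with means of 5.66 to 6.93 in tumours and 7.46 to 8.42 in non-tumoral tissue, as were 3 of 7 endothelial, 2 of 8 stellate and 2 of 11 hepatocyte markers. Their part was not tested. Of the other pathway genes 0 rose and 1 fell of 30, Acadsb (-1.05, adjusted p = 0.00761).

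**Figure D4:**
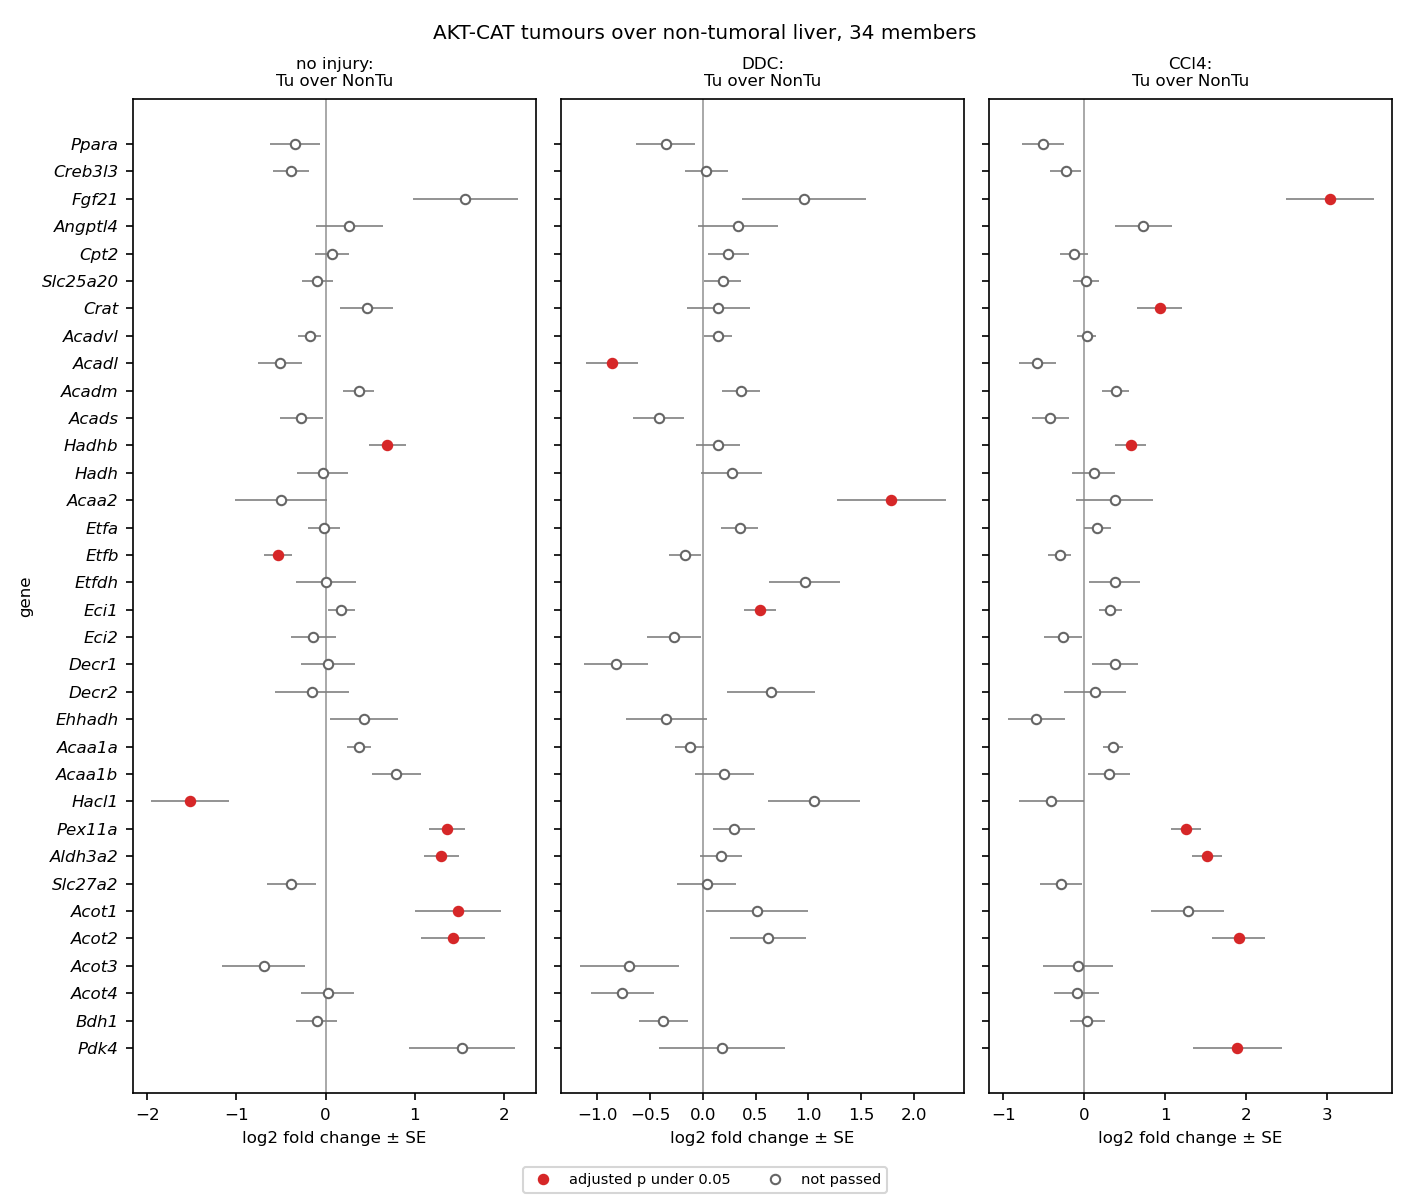
Log2 fold change ± SE of the 34 members in AKT-CAT tumours over non-tumoral tissue without injury, with DDC and with CCl4. Filled red points passed an adjusted p of 0.05. Pex11a lies at 1.36 without injury and 1.26 with CCl4, and Fgf21 reaches 3.03 with CCl4.

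CCl4 itself was set against no injury within AKT-CAT tissue, between slides that share no group, so that slide and CCl4 cannot be told apart. In tumours 2 members rose and 1 fell, where 8.29% of all genes were called (5.12% higher and 3.17% lower). Hadhb stood at 11.80, 12.47, 12.42 and 12.89 in tumours with CCl4, against 11.65, 11.28, 11.60 and 11.04 without it (log2 fold change 1.0 ± 0.19, adjusted p = 0.00131). Creb3l3 stood at 10.44, 10.28, 10.46 and 10.12 with CCl4, against 9.75, 9.41, 9.27 and 9.38 without it (log2 fold change 0.87 ± 0.19, adjusted p = 0.00357). Every array with CCl4 exceeded every array without it in both genes. Ppara had 6.68, 6.0, 6.38 and 5.95 with CCl4 and 7.09, 7.30, 6.48 and 7.44 without it (log2 fold change -0.82 ± 0.26, adjusted p = 0.0454), and its call was lost without any of 6 single arrays (AKT-CAT replicates 1, 2 and 4 and CCl4 replicates 2, 3 and 4, adjusted p = 0.0602 to 0.151). With median scaling 3 members were higher and 0 lower. 3 of 5 neutrophil markers were higher in tumours with CCl4, with means of 6.30 to 9.35 with CCl4 and 4.81 to 6.68 without it, and so were 1 of 11 hepatocyte and 1 of 8 stellate markers, while 1 of 5 Kupffer cell and macrophage markers was lower. The part of these cells was not tested.

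In non-tumoral tissue with CCl4, 3 members rose and 3 fell, where 19% of all genes were called (10.8% higher and 8.25% lower). Hadhb stood at 11.86, 11.79, 11.73 and 11.90 with CCl4, against 11.03, 10.29 and 10.77 without it (log2 fold change 1.12 ± 0.21, adjusted p = 0.000269). Ehhadh stood at 9.63, 9.72, 9.93 and 9.95 with CCl4, against 8.64, 7.30 and 9.01 without it (log2 fold change 1.49 ± 0.38, adjusted p = 0.00618), and Creb3l3 at 10.67, 10.46, 10.55 and 10.52 with CCl4, against 9.97, 9.75 and 9.80 without it (log2 fold change 0.71 ± 0.20, adjusted p = 0.0125). All arrays with CCl4 exceeded those without it in these 3 genes, but the calls of Ehhadh (adjusted p = 0.0993) and Creb3l3 (0.0543) were lost without non-tumoral replicate 2. Hacl1 (log2 fold change -1.50 ± 0.43, adjusted p = 0.0141), Acot2 (at least 1.61-fold lower, adjusted p = 0.0144) and Bdh1 (log2 fold change -0.70 ± 0.23, adjusted p = 0.0316) fell. Each of these falls was lost without single arrays: Hacl1 without non-tumoral replicate 1 (adjusted p = 0.0867) or CCl4 replicate 3 (0.0602), Acot2 without non-tumoral replicate 3 (0.136), and Bdh1 without non-tumoral replicate 1 or 2 or CCl4 replicates 1, 3 or 4 (0.0554 to 0.134). The Acot2 call, which rests on its brightest probe, was also lost under the mean of its probes, median scaling and a fit of the compared groups alone. The count was 3 without non-tumoral replicate 2, and median scaling gave 4 higher and 0 lower. Neutrophil markers rose in the non-tumoral tissue with CCl4 (4 of 5, with means of 7.96 to 11.47 with CCl4 and 6.16 to 7.74 without it). 3 of 11 hepatocyte and 1 of 8 stellate markers were higher, and 1 of 7 endothelial and 1 of 4 T and NK cell markers lower, and the part of these cells was not tested.

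**Figure D5:**
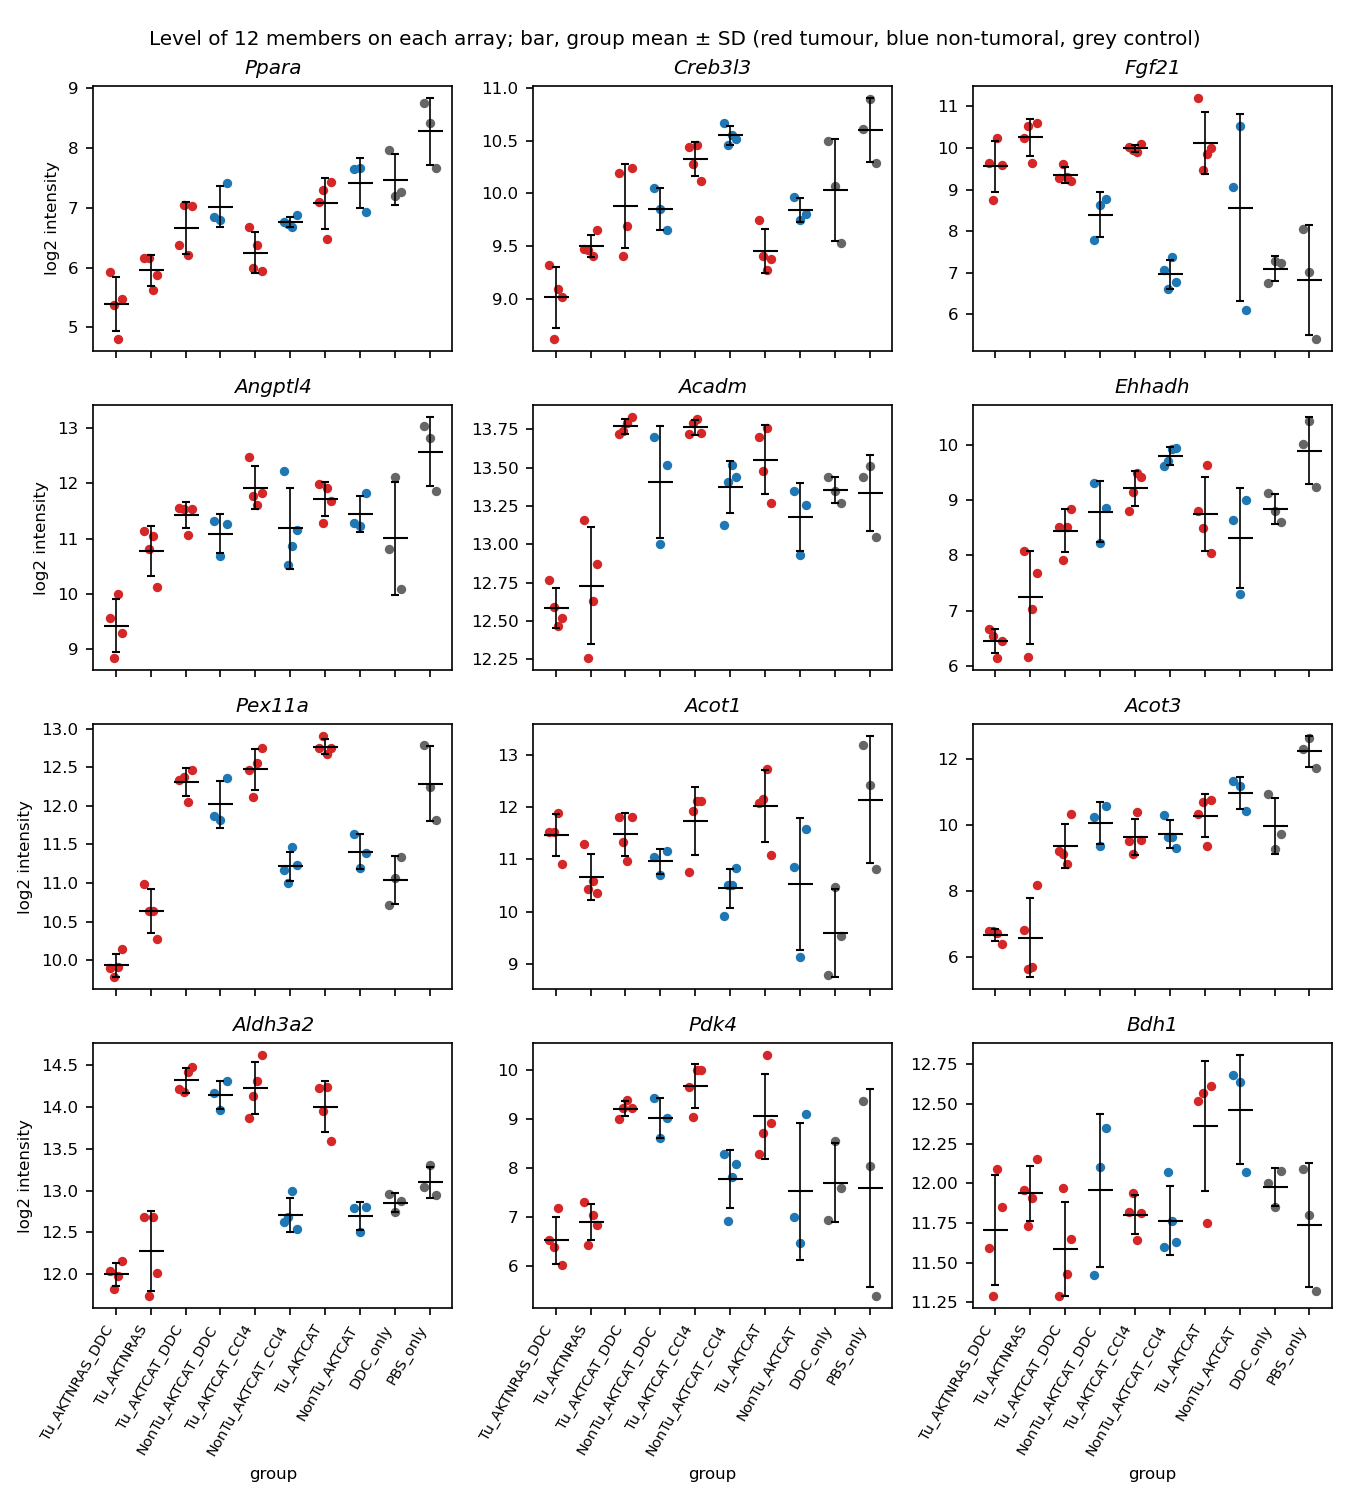
Log2 intensity of 12 members on each array by group, with the group mean and SD as a bar. Tumours are red, non-tumoral tissue blue and control livers grey. AKT-NRAS tumours hold the lowest Ppara, Pex11a, Aldh3a2 and Pdk4 means. Fgf21 lies between 8.75 and 11.20 on the tumour arrays, against at most 8.04 in PBS-only livers. On non-tumoral arrays Fgf21 stands at 9.06, 10.52 and 6.10 without injury and at 7.78, 8.63 and 8.78 with DDC. Some of these lie inside the tumour range, while those with CCl4 lie between 6.60 and 7.38.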

How the data were processed

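The arrays were Illumina bead arrays hybridised with biotinylated cRNA from total RNA (RNeasy columns, MessageAmp kit, per the labels). The authors deposited bead summary intensities from GenomeStudio without normalization between arrays, together with a detection p-value per probe and array, per the file headers. Each detection column was matched to the 1 intensity column that it follows without a step out of order. A second deposited table holds intensities processed by a method that is not given in the sources used here. The array's own platform annotation gave 23978 of 25697 probes 1 gene, and 1719 none.

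The intensities were corrected by normexp with the detection p-values (offset 16), quantile normalized and log2 transformed. Probes detected at p under 0.05 on at least 3 of 36 arrays were kept (14754), and the brightest stood for each of 10765 genes. A single limma fit of 10 groups without covariates (limma 3.58.1, R 4.3.3) gave two-sided moderated tests with Benjamini-Hochberg adjustment over the 10765 genes. A level below background in a whole group is given as a bound. Figures and promoter searches used Python 3.11.15 with pandas 2.3.3, numpy 2.4.6 and matplotlib 3.10.9. The fit was tested on simulated data.

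Groups and replicate numbers come from the sample titles. The members, the 43 other pathway genes (30 measured) and the marker lists were chosen with earlier results of these data known. Members called were named by size of change, and up to 3 pathway genes were named per comparison. Of 13 chosen members, those measured were given by array in some comparisons only. In others they were given as fold changes or left out, so an unnamed member may still have shifted without a call. Alternatives covered the normalization, the authors' processed intensities, the filter on dim probes, the probe choice, the variance prior, slide, replicate number, the samples in the fit and single arrays left out. The number of arrays limits the precision.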

Additional observations from a re-analysis of the deposited data

Results flagged for a closer look

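Each of the 34 members was tested for an outlying array in each group of 4 arrays, which gave 204 sets. In 13 of them (6.37%), the highest or lowest array lay far from the other 3 by Dixon's test at 95%, where chance alone gives about 1 in 20. The sets share arrays and are not independent, and groups of 3 arrays were not tested. Angptl4 had 11.07 in replicate 3 of AKT-CAT tumours with DDC, against 11.53 to 11.56 in the other 3 arrays. Decr2 had 8.3 in replicate 2 of that group, against 6.54 to 6.74, and Hacl1 had 6.86 in the same array, against 6.19 to 6.3. Acaa1b had 15.02 in its replicate 1, against 14.78 to 14.81.

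In AKT-CAT tumours with CCl4, Slc25a20 had 11.6 in replicate 2, against 11.87 to 11.91, and Slc27a2 had 12.23 in the same array, against 12.94 to 13.01. Acaa2 had 11.36 in replicate 1, against 11.93 to 11.99, and Acot1 had 10.76 there, against 11.92 to 12.11. Acaa1b had 14.47 in replicate 4, against 14.96 to 15.06.

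In AKT-CAT tumours without injury, replicate 3 was low in Decr1 (9.43, against 9.92 to 9.99) and in Bdh1 (11.75, against 12.52 to 12.61). Crat had 6.7 in replicate 1 of AKT-NRAS tumours, against 7.32 to 7.36. Acadl had 9.42 in replicate 3 of non-tumoral tissue with CCl4, against 8.72 to 8.83.

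The change with DDC differed between AKT-NRAS and AKT-CAT tumours for Creb3l3 (-0.92) and Acaa1b (-1.26), each by limma's test of the difference. It differed between AKT-CAT tumours and non-tumoral tissue for Hacl1 (2.57), Pex11a (-1.07) and Aldh3a2 (-1.13). None of these 5 differences was called with slide as a fixed block, while a random block kept them.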

How the results depend on the processing

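Slide as a fixed block left 1 member called in AKT-CAT tumours against non-tumoral tissue, 0 with DDC (5 at an unadjusted p under 0.05), 2 in AKT-CAT tumours with against without DDC, 0 in non-tumoral tissue with against without DDC (7 unadjusted), 6 in AKT-CAT tumours against PBS-only livers, 0 in non-tumoral tissue against PBS-only livers (3 unadjusted) and 0 in both differences of DDC effects (8 and 4 unadjusted), all by limma. The fixed block could not be estimated for CCl4 against no injury or for AKT-NRAS tumours against AKT-CAT tumours and PBS-only livers. Slide as a random block, with a within-slide correlation of -0.0101, kept all 7 calls in AKT-CAT tumours against non-tumoral tissue and all 3 with DDC. It also kept all 12 in non-tumoral tissue with against without DDC and all 8 in non-tumoral tissue against PBS-only livers. Restricted to the groups compared, the counts were 2 in AKT-CAT tumours against non-tumoral tissue, 5 in non-tumoral tissue with against without DDC, 1 in tumours with against without CCl4, 0 in non-tumoral tissue against PBS-only livers (9 unadjusted) and 4 for the difference of DDC effects between AKT-NRAS and AKT-CAT tumours. Median scaling gave 1 in tumours against non-tumoral tissue with DDC, 16 in non-tumoral tissue against PBS-only livers and 8 for that difference between tumours, and put the median of all genes at -0.52 for it. Without a detection filter the counts were 1 in AKT-NRAS tumours with against without DDC, 5 in non-tumoral tissue against PBS-only livers and 0 (11 unadjusted) for the difference between tumours. The authors' processed intensities gave 0 for that difference (11 unadjusted) and the mean of a gene's probes gave 1. In tumours against non-tumoral tissue with DDC, Acadl reversed to 0.034 under the mean of its probes (adjusted p = 0.945), and in AKT-NRAS against AKT-CAT tumours it reversed to 0.0857 under median scaling (adjusted p = 0.81). The causes were not tested.

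With single arrays left out, the counts ran from 4 to 7 in AKT-CAT tumours against non-tumoral tissue, 0 to 5 with DDC and 5 to 7 with CCl4. They ran from 11 to 16 in DDC-only livers, 2 to 5 in AKT-CAT tumours with DDC, 8 to 9 in non-tumoral tissue with DDC and 0 to 4 in AKT-NRAS tumours with DDC. They ran from 2 to 4 in tumours and 3 to 9 in non-tumoral tissue with CCl4, and from 23 to 26 in AKT-NRAS against AKT-CAT tumours. Against PBS-only livers they ran from 24 to 28 in AKT-NRAS tumours, 9 to 15 in AKT-CAT tumours and 1 to 9 in non-tumoral tissue. The differences of DDC effects ran from 0 to 4 between tumours and 1 to 4 between tumour and non-tumoral tissue.

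The deviations of same-numbered arrays from their group means correlated between -0.302 and 0.357 over 44 pairs. In no comparison did all pairs exceed 0.1, so the numbers were not taken to pair the samples. A replicate block gave 1 call for the difference between AKT-NRAS and AKT-CAT tumours, and moved no other count by over 1.5 times. Intensities near background limit dim members such as Acot2 and Ppara. Under median scaling 0 of the cell type markers called in the 15 comparisons changed sign. More passed in some lists. In AKT-NRAS against AKT-CAT tumours 7 of 8 stellate markers were higher, and 4 of 11 hepatocyte markers were higher and 3 lower. There 2 of 4 T and NK cell markers were also higher and 1 lower. With DDC in AKT-NRAS tumours, 5 of 8 stellate markers were lower. Fewer passed in several other lists: 1 of 11 hepatocyte markers was lower with DDC in AKT-CAT tumours and in non-tumoral tissue, and 0 of 7 endothelial markers in AKT-NRAS against AKT-CAT tumours. Of the markers in tumours against non-tumoral tissue with CCl4, 2 of 5 Kupffer cell and 1 of 7 endothelial markers were then lower.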
